A study of Mus musculus with 22 samples.

Results

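The regions described are the distal ends of the 19 mouse autosomes, the ends that lie away from the centromere. For each autosome the end is the 100 windows of 50 kb with the highest start among the windows that hold at least 1 input count, about 5 Mb, so 1900 windows were taken out of 54520 in all. The choice rested on position and input counts, and no immunoprecipitated count entered it. The windows stop 51213 to 136546 bases before the chromosome's last base in the mm10 assembly, so the telomere repeat itself lies outside them. On 2 and on 13 they step over 1 window with no input.

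Chromatin immunoprecipitation and sequencing of whole testis gave 22 libraries. For γH2AX at 4 weeks there were 3 libraries of the 3Rb cross, F1 (B6.SPRET7MOLF12 x RBF/Dnj), whose males carry 3 Robertsonian translocations in the heterozygous state. There were 3 libraries each of 2 crosses heterozygous for 1 translocation, which both take from CBy.RBF-Rb(8.12)5Bnr/J: 1Rb_P, where that strain is named second after C57BL/6J, and 1Rb_M, where it is named first and B6.SPRET7MOLF12 second. A single γH2AX library came from C57BL/6J males (B6), with a different antibody supplier in its label, and is given as a value with no error. For H3.3 at 6 weeks there were 3 libraries each of 3Rb, of 1Rb (the strain of 1Rb_M) and of the control Cg, strain B6.SPRET7MOLF12. The 3 inputs, 1 each, were titled 1Rb_M, Cg and B6 and came from testis at 4, 6 and 4 weeks, and the 1Rb_M input carries the strain label of 1Rb_P. Replicates are numbered with no word on whether they come from different animals, so a p-value here speaks of the spread among the sequenced samples, which may be technical. Strain background changes along with the translocations between crosses, and the effects of strain and translocation cannot be told apart. The study asked how Robertsonian translocations change where γH2AX and H3.3 lie in germ cells.

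A Robertsonian translocation joins a pair of acrocentric chromosomes at their centromeres, and the distal ends stay free. γH2AX is histone H2AX phosphorylated at DNA breaks; in meiotic prophase it marks chromatin with unrepaired breaks and chromosomes that have not synapsed, above all the X and Y in the sex body. H3.3 is the histone variant placed outside DNA replication at active genes, and it also enters the sex body as new nucleosomes are laid down. That RBF/Dnj joins 1 with 3, 8 with 12 and 9 with 14 is background knowledge, since the labels name 8 with 12 and no other pair. The ends therefore fell into 200 windows on 8 and 12 (joined in both carriers), 400 windows on 1, 3, 9 and 14 (joined in 3Rb) and 1300 windows on the 13 unjoined autosomes.

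The distal windows were richer in genes than the rest of the autosomes. A mean of 1.03 protein-coding genes overlapped a distal window, against 0.84 over the 46120 other autosomal windows. Windows with no protein-coding gene made up 34.8% of the distal windows and 42.0% of the others, and windows with 3 or more made up 9.2% and 5.5%. The ends differed among themselves far more than that: the end of 17 held 4 protein-coding genes, the end of 18 held 8, and the ends of 7, 15 and 10 held 130, 132 and 162. The ends of 8 and 12 held 36 and 15 genes, and the ends of 1, 3, 9 and 14 held 38, 14, 76 and 24.

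The promoters printed here show what kind of sequence lies in some of the named windows. They are 300 bases each (250 before the gene's start and 50 after it) on the gene's strand, from RefSeq for GRCm38.p6. Each was picked because it starts inside a window named in the results. Disc1 and Cbr3 come from windows low in γH2AX in 3Rb, and Zfp950 from a window high in it. Tnfrsf23 comes from a window higher in γH2AX in 3Rb than in 1Rb_P and not than in 1Rb_M. Isl1 comes from the end of 13. Capitals mark each CG and the telomere repeat unit TTAGGG, searched on both strands; all other bases are in lower case.
Disc1, chr8:125053945-125054244, plus strand: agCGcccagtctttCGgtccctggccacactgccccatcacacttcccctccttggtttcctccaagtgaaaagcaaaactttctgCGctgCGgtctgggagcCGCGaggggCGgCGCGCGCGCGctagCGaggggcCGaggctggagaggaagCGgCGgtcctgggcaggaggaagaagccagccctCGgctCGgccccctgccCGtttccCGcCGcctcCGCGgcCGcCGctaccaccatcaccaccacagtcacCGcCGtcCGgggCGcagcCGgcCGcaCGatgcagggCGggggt
Cbr3, chr16:93682969-93683268, plus strand: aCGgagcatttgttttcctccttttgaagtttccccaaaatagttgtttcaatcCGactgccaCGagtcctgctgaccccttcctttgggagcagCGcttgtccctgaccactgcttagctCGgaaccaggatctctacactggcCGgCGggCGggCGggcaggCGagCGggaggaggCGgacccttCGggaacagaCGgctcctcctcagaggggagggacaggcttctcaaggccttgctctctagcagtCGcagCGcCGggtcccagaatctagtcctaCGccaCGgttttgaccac
Tnfrsf23, chr7:143685826-143686125, minus strand: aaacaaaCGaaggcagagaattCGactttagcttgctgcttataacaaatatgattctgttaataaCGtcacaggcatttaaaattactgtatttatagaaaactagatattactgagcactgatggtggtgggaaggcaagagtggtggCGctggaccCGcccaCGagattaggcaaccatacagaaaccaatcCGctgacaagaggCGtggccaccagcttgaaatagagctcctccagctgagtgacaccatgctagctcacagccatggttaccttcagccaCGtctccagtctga
Zfp950, chr19:61140791-61141090, minus strand: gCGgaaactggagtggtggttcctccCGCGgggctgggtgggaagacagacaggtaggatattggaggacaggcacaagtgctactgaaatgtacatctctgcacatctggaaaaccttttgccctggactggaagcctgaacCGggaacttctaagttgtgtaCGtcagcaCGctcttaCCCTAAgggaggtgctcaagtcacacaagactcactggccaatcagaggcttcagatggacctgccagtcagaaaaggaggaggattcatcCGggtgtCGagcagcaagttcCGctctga
Isl1, chr13:116309639-116309938, minus strand: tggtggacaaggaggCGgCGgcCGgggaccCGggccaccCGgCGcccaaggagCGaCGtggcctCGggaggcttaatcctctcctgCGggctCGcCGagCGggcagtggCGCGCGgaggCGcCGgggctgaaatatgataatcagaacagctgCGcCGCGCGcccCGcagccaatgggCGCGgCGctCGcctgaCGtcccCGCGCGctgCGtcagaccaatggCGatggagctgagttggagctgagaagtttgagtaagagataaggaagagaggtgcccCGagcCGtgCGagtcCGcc

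The Disc1 and Isl1 promoters are CG-rich, with 33 and 37 CG and a GC content of 71% and 69%. Of these promoters only Zfp950 holds the telomere repeat unit, once, starting at base 181. Over the 1767 distal promoters of the table the unit occurred in 10.2%, and over all 32851 promoters in 10.6%, so the distal promoters hold it about as often as any. It occurred in 6.81% of the 411 promoters at the ends of 1, 3, 8, 9, 12 and 14 and in 11.2% of the 1356 at the unjoined ends. At least 1 CG occurred in 95% of distal and 94.6% of all promoters, with medians of 8 and 7 per promoter. Of 36 protein-coding genes named from windows that passed the test, 28 are in the promoter table and 19 start inside the named window. A match is a description of letters and not a binding site.

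The libraries held 11876426 to 128348440 counts. The median distal window held 616 to 765.5 counts in the carriers' γH2AX libraries, 286 in B6, 761 to 2503.5 in H3.3 and 224 to 947 in the inputs, so counting error at that window was 2.0 to 6.68%. These errors cover counting only. The X took 17.67 to 20.6% of γH2AX counts in every library except 1Rb_M replicates 1 and 2, where it took 12.34% in both, against 3.16 to 3.17% in the inputs. The γH2AX counts are therefore also given without those 2 libraries where they change. Fewer cells of a type and less of a mark per cell cannot be told apart in whole testis.

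The distal ends took a smaller share of γH2AX in 3Rb than in the other crosses. They held 2.501, 2.512 and 2.518% of all counts in the 3Rb libraries, 2.587 to 2.671% in 1Rb_P, 2.721 to 3.011% in 1Rb_M and 2.628% in B6, against 3.413 to 3.606% in the inputs. To set the X and depth aside, each end was expressed as the log2 ratio of its summed counts to the pooled 3 inputs, relative to the same ratio in the interior of the 13 unjoined autosomes; this is called enrichment below. Averaged over the 19 ends, γH2AX enrichment was -0.08 ± 0.01 in 3Rb, -0.03 ± 0.03 in 1Rb_P and 0.01 ± 0.04 in 1Rb_M (SD, n = 3 each), and 0.05 in B6. The 3Rb libraries lay between -0.10 and -0.07 and the 6 libraries of the 1Rb crosses between -0.06 and 0.04, with no overlap. The difference of -0.07 gave a two-sided exact permutation p of 0.0238, the smallest that 3 against 6 allow, and 0.0952 after Benjamini-Hochberg adjustment over the 6 comparisons of this kind, so it did not pass 0.05.

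The end of 13 had the highest mean γH2AX enrichment in every group, though not in every 1Rb_M library. Its enrichment was 0.41, 0.45 and 0.47 in 3Rb, 0.31, 0.35 and 0.37 in 1Rb_P, 0.10, 0.14 and 0.16 in 1Rb_M and 0.45 in B6. The 3 carrier crosses do not overlap there. In 1Rb_M the end of 4, at 0.13, -0.03 and 0.28, exceeded it in replicates 1 and 3, and the end of 19, at 0.19, in replicate 3. The 1Rb_M means of the ends of 13 and 4 were both 0.13. At the other extreme, the end of 11 was at -0.37, -0.31 and -0.33 in 3Rb, -0.03, -0.08 and -0.19 in 1Rb_P, 0.00, -0.15 and 0.07 in 1Rb_M and 0.01 in B6. It was the lowest end in 3Rb, and the end of 1 was the lowest in each of the others. In 3Rb, 7 ends lay above the interior level and 12 below it, against 6 and 13 in 1Rb_P, 8 and 11 in 1Rb_M and 11 and 8 in B6. All 3 libraries of 3Rb lay below all 6 of the 1Rb crosses at the ends of 1, 2, 4, 8, 10, 11 and 16, and above all 6 at the ends of 3 and 13. All 9 carrier libraries lay below the single B6 library at the ends of 3, 14, 16, 17 and 18. Such separation was not counted in other chromosome regions, so these counts do not set the ends apart from them.

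**Figure D1:**
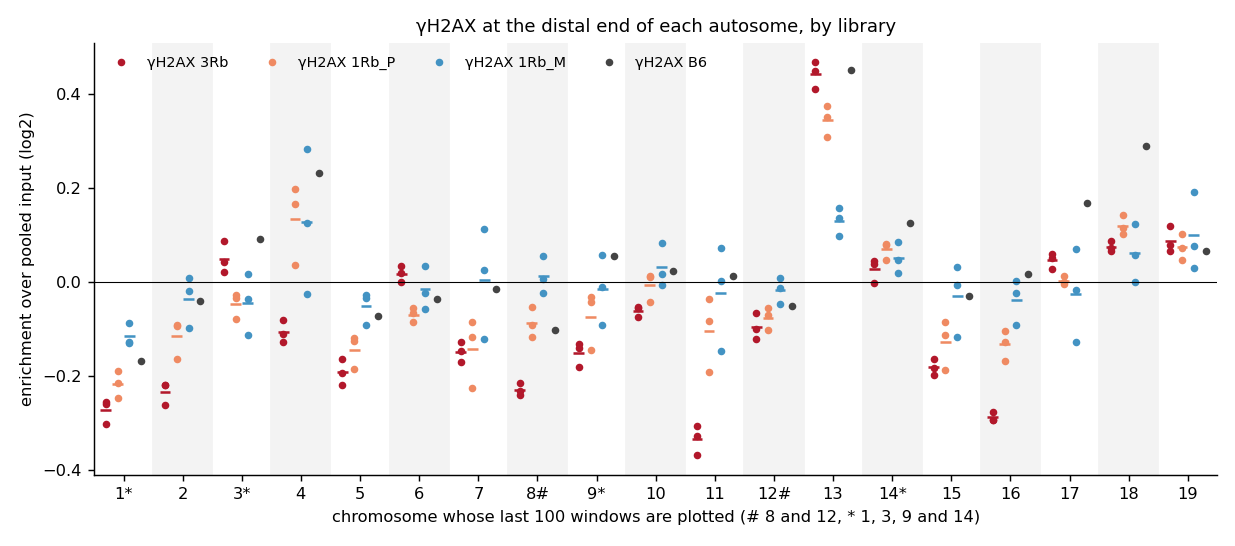
γH2AX enrichment over pooled input (log2, y axis) at the distal end of each autosome (x axis), 1 point per library with a line at the mean of 3, for 3Rb, 1Rb_P, 1Rb_M and B6. The end of 13 has the highest mean in each group, at 0.41 to 0.47 in the 3Rb libraries, and the end of 11 the lowest in 3Rb, at -0.37 to -0.31.

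Low γH2AX in 3Rb was deepest a few megabases in from the end and not at the end itself. In bands of 1 Mb from the end inward, averaged over the 19 ends, enrichment in 3Rb was 0.02, -0.10, -0.15, -0.13 and -0.07. In 1Rb_P it was 0.04, -0.07, -0.07, -0.05 and -0.01, and in 1Rb_M 0.04, -0.02, -0.02, 0.00 and 0.03. B6 stayed above 0 in all 5 bands, at 0.13, 0.02, 0.04, 0.04 and 0.03. All 3 carrier crosses shared the shape, with the outermost band the highest of the 5 and a trough between 1 and 4 Mb, and they differed in its depth. The outermost band was the highest in B6 as well, and the next was its lowest. In 1Rb_M the trough was shallow, at -0.02, where the mean of 19 ends had an SD of 0.04 over libraries. From 5 to 10 Mb inward, 3Rb returned towards the interior level, at -0.04 to 0.00. Close to the telomere the order turned: in the window next to the last, enrichment was 0.21 ± 0.03 in 3Rb, 0.11 ± 0.01 in 1Rb_P and 0.09 ± 0.02 in 1Rb_M (SD, n = 3 each), and 0.14 in B6. The last window itself scattered widely, at 0.05 ± 0.06 in 3Rb, 0.31 ± 0.14 in 1Rb_P, 0.13 ± 0.26 in 1Rb_M and 0.78 in B6. H3.3 had no such trough, at 0.06 to 0.13 in 3Rb, 0.07 to 0.16 in 1Rb and 0.08 to 0.15 in Cg over the same 5 bands.

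**Figure D2:**
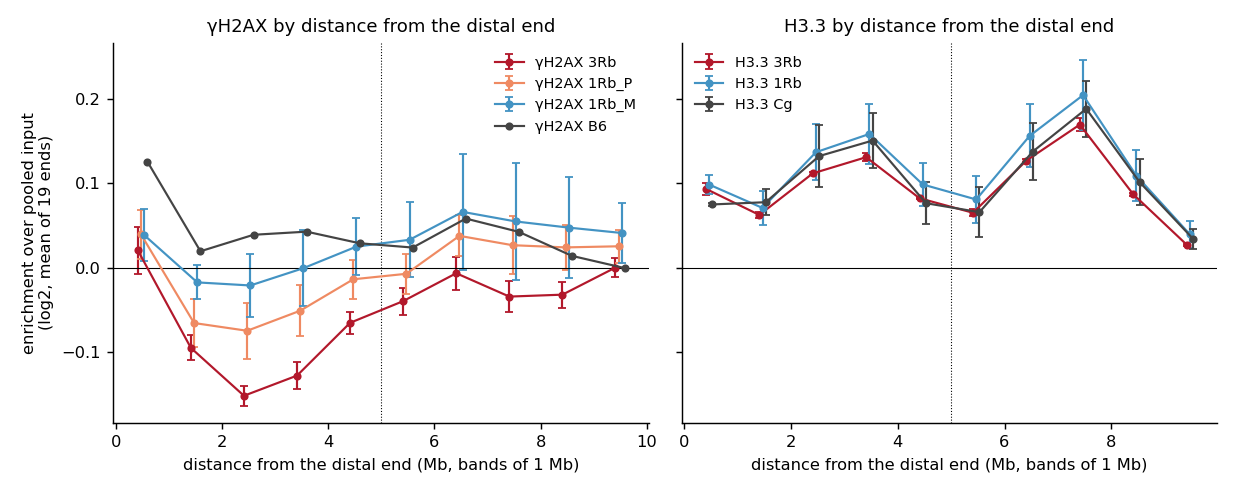
Enrichment over pooled input (log2, mean of 19 ends) against distance from the distal end in bands of 1 Mb, γH2AX left and H3.3 right; points are means of 3 libraries with SD bars, except B6 with 1 library, and the dotted line marks 5 Mb. γH2AX in 3Rb is lowest, at -0.15, between 2 and 3 Mb, where H3.3 is at 0.11 in 3Rb, 0.14 in 1Rb and 0.13 in Cg.

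Ends were then tested as whole regions, with the share of a library's counts in each end compared by edgeR's quasi-likelihood test over 59 chromosome regions and adjusted over them. Between 3Rb and 1Rb_P, 8 of 19 ends passed an adjusted p of 0.05. This is 42.1%, against a background of 35.6% of the 59 regions. Region backgrounds here and below include the 19 ends themselves. γH2AX fell at the ends of 4, 11, 16, 8, 2 and 10 and rose at the ends of 6 and 13. This test uses no input, and the inputs themselves differed at the ends. Relative to the unjoined interior, log2 Cg minus B6 input was -0.18, -0.18, -0.15, -0.11, -0.11 and -0.06 at the lower ends, in that order. It was -0.07 and -0.02 at the ends of 6 and 13, and -0.22 at the end of 7, which did not pass. Log2 1Rb_M minus Cg input was 0.06, 0.07, 0.03, 0.02, 0.06 and 0.02 at the same lower ends. At the ends of 6, 13 and 7 it was -0.006, 0.001 and 0.10. Neither Cg nor B6 libraries enter this test. No input of 3Rb was analysed here, and the part of input in these differences was not tested. The end of 4 held 0.141 ± 0.002% of counts in 3Rb and 0.168 ± 0.009% in 1Rb_P (SD, n = 3 each), a log2 difference of -0.25 ± 0.06 (SE, adjusted p = 0.0136 by edgeR). The end of 8 held 0.122 ± 0.001% in 3Rb and 0.135 ± 0.002% in 1Rb_P, a difference of -0.15 ± 0.02 (adjusted p = 0.000394 by edgeR). The end of 13 held 0.188 ± 0.004% in 3Rb and 0.176 ± 0.005% in 1Rb_P, a difference of 0.09 ± 0.03 (adjusted p = 0.0227 by edgeR). The count was 5 in place of 8 when 1Rb_P replicate 1 or 3Rb replicate 3 was left out.

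Against 1Rb_M more ends fell. There 13 of 19 ends passed (68.4%, background 47.5%): 12 fell, among them the 6 named above, and 1, the end of 13, rose. The end of 11 held 0.124 ± 0.002% of counts in 3Rb and 0.155 ± 0.009% in 1Rb_M, a log2 difference of -0.33 ± 0.05 (adjusted p = 0.00077 by edgeR). The end of 13 held 0.188 ± 0.004% in 3Rb and 0.153 ± 0.002% in 1Rb_M, a difference of 0.30 ± 0.03 (adjusted p = 4.14e-05 by edgeR). Between the 2 crosses with 1 translocation, 9 of 19 ends passed (47.4%, background 22.0%). The end of 13 was higher in 1Rb_P than in 1Rb_M, by 0.20 ± 0.03 (adjusted p = 0.00273 by edgeR), and 8 ends were lower, beside backgrounds of 5.08% higher and 16.9% lower. The 16.9% is 10 of the 59 regions, and these 8 ends are among the 10. The count of 9 ends rests on single libraries: it was 2 without 1Rb_M replicate 1, 1 without 1Rb_P replicate 2 and 2 without 1Rb_P replicate 3.

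**Figure D3:**
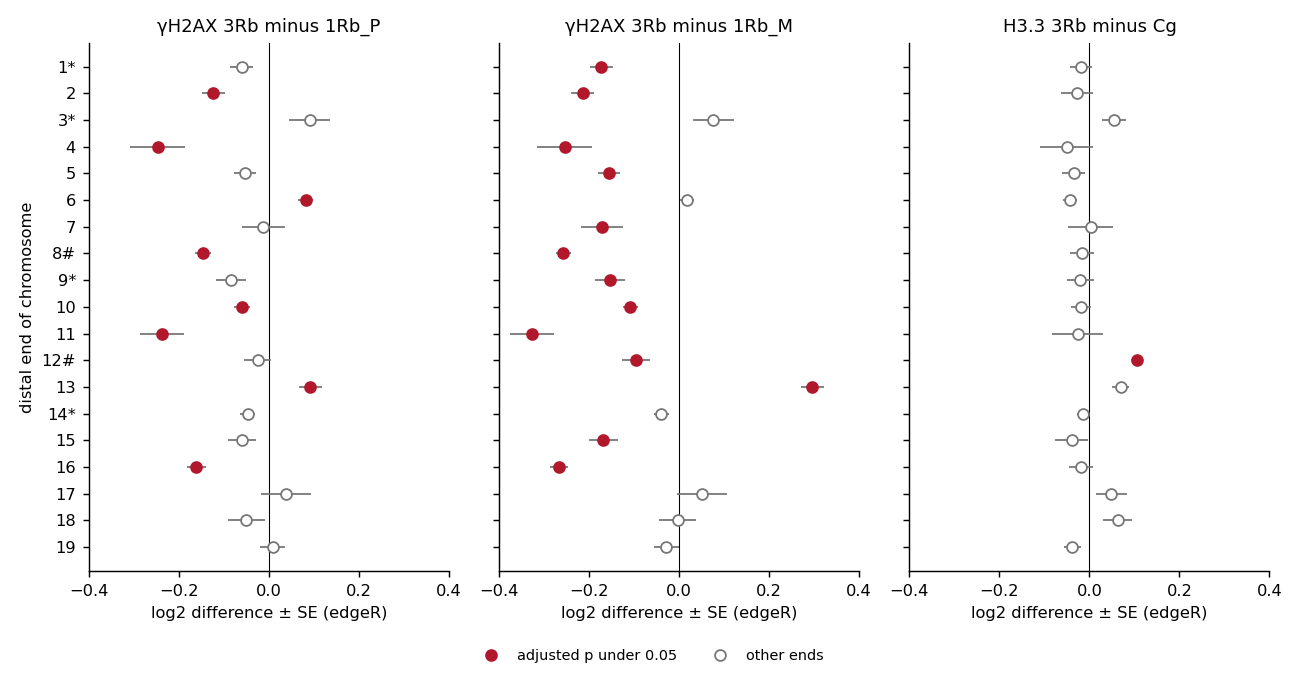
Log2 difference in share of counts at each distal end (± SE, edgeR; filled points passed an adjusted p of 0.05; # marks ends joined in both carriers and * those joined in 3Rb) for γH2AX in 3Rb minus 1Rb_P, γH2AX in 3Rb minus 1Rb_M and H3.3 in 3Rb minus Cg. The end of 13 is high in both γH2AX panels, at 0.09 and 0.30, and the end of 12 is the filled point for H3.3, at 0.10.

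Window by window, more distal windows were lower than higher in 3Rb, and unevenly so. All 1900 distal windows had enough counts to be tested. Against 1Rb_P, γH2AX was lower in 369 distal windows (19.4%) and higher in 87 (4.58%), with a background over 53118 tested windows of 12.8% lower and 10.1% higher. The median log2 difference was -0.04 over distal windows and 0.00 over all. The 456 calls were 267 without 1Rb_P replicate 1, 742 without 1Rb_M replicates 1 and 2, and 212 with DESeq2. Against 1Rb_M, 774 distal windows (40.7%) were lower and 142 (7.47%) higher, with a background of 20.2% and 17.9% and a median of -0.10. In both comparisons 346 windows were lower and 46 higher; the comparisons share the 3Rb libraries. Against 1Rb_P, 76 of 100 were lower at the end of 4, 69 at 11, 47 at 16, 45 at 8 and 35 at 2, whereas none was lower at the ends of 3, 6 and 17.

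The share of windows lower in 3Rb followed both distance and gene number. In the 5 bands from the end inward it was 10.3, 14.7, 25.5, 23.4 and 23.2% against 1Rb_P, beside 11.9% of the other autosomal windows. Against 1Rb_M it was 21.6, 36.8, 53.7, 51.8 and 39.7%, beside 20.3%. Among distal windows with no protein-coding gene 12.6% were lower than in 1Rb_P, with 1 to 2 genes 20.8%, and with 3 or more 36.8%. The other autosomal windows of the same classes gave 5.75, 14.1 and 37.4%, so against 1Rb_P distal windows exceeded them with 0 to 2 genes and not with 3 or more. Against 1Rb_M the distal shares were 27.8, 44.9 and 64.4%, and those of the other autosomal windows 13, 23.5 and 44.4%, so there distal windows exceeded the others in each class. In distal windows with 3 or more genes, γH2AX enrichment was -0.14 ± 0.03 in 3Rb, 0.00 ± 0.07 in 1Rb_P and 0.05 ± 0.11 in 1Rb_M (SD, n = 3 each), and 0.05 in B6. Interior windows of the unjoined autosomes with 3 or more genes gave -0.131 ± 0.019 in 3Rb, -0.004 ± 0.045 in 1Rb_P and 0.004 ± 0.086 in 1Rb_M. B6 was at 0.015 there, so low γH2AX of 3Rb in gene-rich windows is not particular to the ends.

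**Figure D4:**
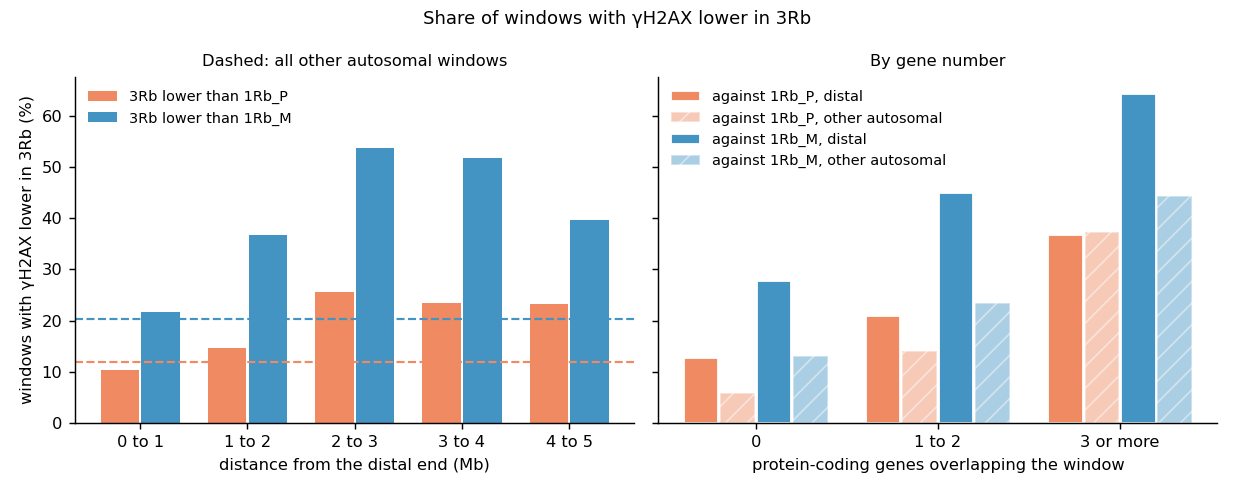
Share of windows with γH2AX lower in 3Rb (adjusted p under 0.05, edgeR), in percent, by distance from the distal end (left; dashed lines are all other autosomal windows, in the colour of the bars) and by number of protein-coding genes (right; hatched bars are other autosomal windows). The shares peak between 2 and 3 Mb at 25.5% against 1Rb_P and 53.7% against 1Rb_M, and rise with gene number.

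Ends of joined chromosomes were compared with unjoined ends inside each library, where differences in depth cancel. Differences between libraries in how strongly the antibody enriched the mark need not cancel. For the ends of 8 and 12, γH2AX enrichment minus that of the 13 unjoined ends was -0.09, -0.11 and -0.08 in 3Rb, -0.06, -0.08 and -0.06 in 1Rb_P, -0.03, 0.02 and -0.06 in 1Rb_M and -0.16 in B6. The 6 libraries of the 1Rb crosses averaged -0.04 and reached -0.08, which overlaps 3Rb, and B6, with no translocation in its label, was lower than all of them. The difference of 3Rb from the 1Rb crosses, -0.05, gave a two-sided exact permutation p of 0.0476 and an adjusted p of 0.0952. It was -0.0052 over the last 50 windows and -0.11 over the last 200. For the ends of 1, 3, 9 and 14 the same measure was -0.01, -0.02 and -0.02 in 3Rb, -0.05, -0.06 and -0.04 in 1Rb_P, -0.04, -0.02 and -0.09 in 1Rb_M and -0.06 in B6. This difference, 0.03, gave an exact permutation p of 0.0714 and an adjusted p of 0.107. Neither comparison passed adjustment, so neither set of joined ends was shown to differ between the crosses beyond the unjoined ends.

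Within the joined set, the ends did not move as 1 group. Against 1Rb_P, 51 of 200 windows (25.5%) at the ends of 8 and 12 were lower in 3Rb, beside 13% elsewhere on 8 and 12, but 45 of the 51 lay on 8 and 6 on 12. At the ends of 1, 3, 9 and 14, 36 of 400 windows (9%) were lower and 15 (3.75%) higher. Elsewhere on these 4 chromosomes 6.53% were lower and 27.3% higher, and those windows include the ones near the joined centromeres. None of the 4 ends passed as a region against 1Rb_P, and the ends of 1 and 9 passed against 1Rb_M, both lower. At the 13 unjoined ends 282 of 1300 windows (21.7%) were lower, beside 13.7% elsewhere on these chromosomes. Against 1Rb_M the distal shares of lower windows were 53.0% on 8 and 12, 29.0% on 1, 3, 9 and 14 and 42.5% on the unjoined chromosomes. Taking each chromosome's own interior as the baseline turned the difference for 1, 3, 9 and 14 to -0.07 (adjusted p = 0.0714 by the exact permutation test).

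The outermost protein-coding genes there are Cr2 on 1 (a complement receptor of B cells), Wls on 3 (the carrier that brings Wnt proteins to the cell surface), Gm32856 on 8, Ppp2r3d on 9, Tmem196 on 12 and Fgf14 on 14 (a modulator of sodium channels). The distal window that overlaps most of each gene did not pass for γH2AX between 3Rb and 1Rb_P, with log2 differences from -0.01 to 0.10. The last window of 12, which holds the outer part of Tmem196, did pass: γH2AX there differed by -0.44 ± 0.14 between 3Rb and 1Rb_P (adjusted p = 0.0172 by edgeR) and by -0.25 ± 0.14 between 3Rb and 1Rb_M (adjusted p = 0.144 by edgeR). Against 1Rb_M the window of Wls passed: it held 15.3, 13.9 and 13.3 CPM (read counts scaled by library size and by edgeR's TMM factor) in 3Rb, and 12.4, 12.6 and 10.2 CPM in 1Rb_M, a difference of 0.27 ± 0.08 (SE, adjusted p = 0.0072 by edgeR).

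The decreases in 3Rb with the smallest adjusted p against 1Rb_P lay in runs of windows on 11, 8 and 16, whose ends hold 108, 36 and 38 protein-coding genes. On 11, 51 called windows between 117000001 and 119550000 formed a run against 1Rb_P, and 79 between 117000001 and 121050000 against 1Rb_M; in both the smallest adjusted p was at chr11:118500001-118550000, inside Rbfox3, a neuronal splicing factor. That window held 8.63, 8.84 and 9.30 CPM in 3Rb, 14.04, 13.5 and 12.1 CPM in 1Rb_P, 16.4, 14.9 and 15.9 CPM in 1Rb_M and 14.1 CPM in B6; CPM of B6 and of inputs are scaled by library total alone. All 3Rb libraries lay below all those of the 1Rb crosses, by 0.57 ± 0.07 on the log2 scale against 1Rb_P (adjusted p = 2.3e-07 by edgeR) and by 0.82 ± 0.07 against 1Rb_M (adjusted p = 1.2e-10 by edgeR), with inputs of 18.3 to 20.8 CPM. Aatk, a kinase of nerve cells, lay further out on 11, at 12.9, 11.7 and 11.3 CPM in 3Rb and 18.2, 17.0 and 15.2 CPM in 1Rb_P.

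On 8 the run against 1Rb_M took in 68 windows, and its lowest adjusted p was at Disc1, a scaffold protein of the centrosome whose promoter is printed above. The Disc1 window held 10.4, 10.6 and 11 CPM in 3Rb, 14.6, 15.0 and 14.2 CPM in 1Rb_P, 17.4, 14.5 and 17.4 CPM in 1Rb_M and 13.2 CPM in B6. 3Rb was below every library of the 1Rb crosses, by 0.45 ± 0.07 against 1Rb_P (adjusted p = 5.2e-06 by edgeR) and by 0.62 ± 0.07 against 1Rb_M (adjusted p = 1e-08 by edgeR). Pcnx2, a membrane protein further along 8, held 11.5, 12.1 and 12.2 CPM in 3Rb and 17.4, 16.5 and 15.1 CPM in 1Rb_P. On 16 the windows of Cbr3, a carbonyl reductase, and Cldn14, a claudin of tight junctions, led the 2 comparisons: Cbr3 held 14.02, 14.9 and 15.1 CPM in 3Rb and 20.7, 20.98 and 20.8 CPM in 1Rb_P, and Cldn14 held 11.7, 11.1 and 11.4 CPM in 3Rb and 18.1, 16.3 and 15.7 CPM in 1Rb_M. Cdh4 on 2 (R-cadherin) and Krt80 on 15 (a keratin) completed the first 5 against 1Rb_M, at differences of -0.51 ± 0.07 and -0.58 ± 0.07.

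Against 1Rb_P the increases were fewer than the decreases. Against 1Rb_M 91 of the 142 higher windows lay at the end of 13, between 115300001 and 120300000, by 0.15 to 0.68 on the log2 scale. On 7 the windows of Tnfrsf26 and Tnfrsf22 and of Tnfrsf23 and Osbpl5, receptors of the tumour necrosis factor family and a lipid carrier in an imprinted domain, had the smallest adjusted p of the distal windows that were higher in 3Rb than in 1Rb_P. The Tnfrsf26 window held 21.2, 23.5 and 20.7 CPM in 3Rb, 11.6, 12.8 and 11.7 CPM in 1Rb_P, 22.2, 21.3 and 21.5 CPM in 1Rb_M and 11.01 CPM in B6. So 3Rb was 0.86 ± 0.07 above 1Rb_P on the log2 scale (adjusted p = 3.7e-11 by edgeR) and 0.01 ± 0.06 above 1Rb_M (adjusted p = 0.931 by edgeR). The 3Rb and 1Rb_M crosses share the parent B6.SPRET7MOLF12 by their labels, and 1Rb_P does not. That strain name includes the number 7, and the part of strain in the γH2AX difference was not tested. The inputs differed too, at 30.9 CPM in 1Rb_M, 38.5 CPM in Cg and 19.9 CPM in B6, and their part in the γH2AX difference was not tested. Kcnq1, a potassium channel gene of the same imprinted region, held 14.4, 15.1 and 14.5 CPM in 3Rb and 10.9, 11.6 and 12.5 CPM in 1Rb_P. There 3Rb was above 1Rb_M as well, by 0.27 ± 0.06 (adjusted p = 0.001 by edgeR), and 1Rb_P minus 1Rb_M was -0.05 ± 0.07 (adjusted p = 0.641 by edgeR).

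Some windows near the tip of 13 were higher in 3Rb for both marks, and others were not. At Gm21761 γH2AX was 20.97, 23.8 and 26 CPM in 3Rb, 14.98, 14.3 and 16.2 CPM in 1Rb_P, 14.4, 15.2 and 14.5 CPM in 1Rb_M and 13.7 CPM in B6. H3.3 in the same window was 22.1, 21.8 and 22.3 CPM in 3Rb, 14.3, 13.6 and 14.6 CPM in 1Rb and 14.2, 15.2 and 13.9 CPM in Cg. No library of 3Rb overlapped another group for either mark, with log2 differences of 0.64 ± 0.07 (γH2AX, against 1Rb_P, adjusted p = 2.3e-08 by edgeR) and 0.61 ± 0.05 (H3.3, against Cg, adjusted p = 2.4e-13 by edgeR). No input of the 3Rb cross was analysed here, and the inputs of the other strains were 16.3 to 18.4 CPM in that window. At 4833420G17Rik, further in at 119450001, 3Rb was lower, by 0.28 ± 0.08 for γH2AX against 1Rb_P (adjusted p = 0.00658 by edgeR) and by 0.23 ± 0.06 for H3.3 against Cg (adjusted p = 0.00809 by edgeR), and γH2AX against 1Rb_M was -0.07 ± 0.08. BC147527, further out, gave -0.19 ± 0.09 for γH2AX against 1Rb_P (adjusted p = 0.123 by edgeR) and 0.29 ± 0.06 for H3.3 against Cg (adjusted p = 0.000343 by edgeR). The window of Gm20767 gave 0.50 ± 0.07 for γH2AX against 1Rb_P and 0.41 ± 0.05 for H3.3 against Cg. How reads that map to several places were handled is not given in the sources used here, which bears on windows with repeated genes. The named windows with higher γH2AX on joined chromosomes were Lrrc7 on 3, a synaptic scaffold, and Ccdc7b on 8. Lrrc7 held 17.5, 16.6 and 15.6 CPM in 3Rb and 12.9, 14.6 and 12.4 CPM in 1Rb_P. Ccdc7b held 15.3, 15.2 and 16.5 CPM in 3Rb and 12.9, 13.1 and 13.6 CPM in 1Rb_M (0.25 ± 0.06, adjusted p = 0.000741 by edgeR), and was 0.16 ± 0.06 above 1Rb_P (adjusted p = 0.0357 by edgeR); it lost its call against 1Rb_M with library totals as the scale.

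Between 1Rb_P and 1Rb_M the end of 13 carried nearly all of the higher windows. Of 45 distal windows higher in 1Rb_P (2.37%, background 1.06%), 44 lay on 13 between 115450001 and 119250000, by 0.23 to 0.37 on the log2 scale, and 14 of the 26 lower windows (1.37%, background 0.299%) lay on 7; the background in either direction was 1.36%. With library totals as the scale the split became 6 higher and 56 lower. Isl1, a homeobox factor of heart and nerve development, held 16.0, 16.6 and 16.9 CPM in 1Rb_P and 13.1, 14.6 and 14.1 CPM in 1Rb_M. The median input difference of 1Rb_M minus Cg over the 100 windows of the end of 13 was 0.01. No pair of inputs of the 1Rb_P and 1Rb_M crosses was analysed, so this value cannot show whether input was level between them. The 71 calls depend on single libraries. They were 6, 347 and 447 without 1Rb_M replicate 1, 2 or 3, 46, 16 and 6 without 1Rb_P replicate 1, 2 or 3, and 46 and 41 without 3Rb replicate 2 or 3.

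Gene families at the ends were read from lists of germ cell and clustered genes. Their counts stand beside those of all distal windows. Of these 19.4% were lower and 4.58% higher against 1Rb_P, and 40.7% lower and 7.47% higher against 1Rb_M. Members of a list can lie side by side at 1 end, and the counts were not set beside other windows of that end. As a region the end of 15, which holds Krt80, differed by -0.06 ± 0.03 (SE) against 1Rb_P and -0.17 ± 0.03 against 1Rb_M. The end of 7, which holds Kcnq1, differed by -0.01 ± 0.05 and -0.17 ± 0.05. Keratins, of which 31 lie in 18 distal windows, fell in 5 windows against 1Rb_P and in 14 against 1Rb_M and rose in none, with medians of -0.12 and -0.32 beside -0.04 and -0.10 over all distal windows. Krt5, a keratin of basal epithelial cells, held 8.69, 9.64 and 10.3 CPM in 3Rb and 11.7, 11.9 and 11.2 CPM in 1Rb_P. The 9 Hox genes lie in 3 windows, of which 1 fell against 1Rb_P, at Hoxc8 to Hoxc11 (-0.21 ± 0.07), and 3 fell against 1Rb_M. Of 9 windows with chemokine receptor genes, 2 fell against 1Rb_P, among them that of Ackr2 (-0.30 ± 0.06), and 4 fell against 1Rb_M. The 71 olfactory receptor genes lie in 34 windows, of which 1 fell against 1Rb_P and 3 against 1Rb_M, with medians of 0.03 and 0.00. The 16 imprinted genes lie in 19 windows, of which 3 rose and 0 fell against 1Rb_P, while 1 rose and 13 fell against 1Rb_M. Of 18 windows with zinc finger genes 2 rose and 2 fell against 1Rb_P, among them Zfp950 (0.21 ± 0.07), and 3 rose and 5 fell against 1Rb_M. The 5 windows of vomeronasal receptor genes gave 0 calls against 1Rb_P and 1 higher against 1Rb_M.

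Few genes of meiosis or spermatogenesis lie at the ends. Dnah17, a dynein heavy chain of the sperm tail on 11, held 12.2, 12.2 and 11.4 CPM in 3Rb, 17.2, 17.5 and 15.4 CPM in 1Rb_P and 18.48, 14.7 and 19.4 CPM in 1Rb_M, and no library of 3Rb overlapped those of the 1Rb crosses. Of the 5 windows of spermatid genes 3 fell in each comparison; counts in this paragraph stand beside 19.4% of distal windows lower against 1Rb_P and 40.7% against 1Rb_M. Rtel1 on 2, the 1 member of the telomere list at an end and a helicase of telomere upkeep, lies in 2 distal windows. In 1 of them γH2AX fell by 0.19 ± 0.06 on the log2 scale against 1Rb_P (adjusted p = 0.0138 by edgeR) and by 0.16 ± 0.06 against 1Rb_M (adjusted p = 0.0251 by edgeR). The other window of Rtel1 passed in neither comparison. Brca2 on 5, which acts in the repair of double-strand breaks by recombination, also lies in 2 distal windows. In 1 of them γH2AX differed by 0.05 ± 0.07 against 1Rb_P (adjusted p = 0.657 by edgeR) and fell against 1Rb_M (-0.17 ± 0.06). The other window of Brca2 passed in neither comparison. Of 5 windows of synaptonemal complex and cohesin genes, 0 passed against 1Rb_P and 2 fell against 1Rb_M. The spermatogonial genes gave 7 windows, of which 1 rose against 1Rb_P, at Nanos1 (0.16 ± 0.06), and 3 fell against 1Rb_M. Actg1, a housekeeping actin on 11, fell by 0.26 ± 0.06 and by 0.29 ± 0.06. As a region the end of 11, which holds Dnah17 and Actg1, differed by -0.24 ± 0.05 against 1Rb_P and -0.33 ± 0.05 against 1Rb_M. The lists of Sertoli and Leydig genes, of histones and their chaperones and of protein-coding immunoglobulin heavy chain genes have no member at the ends.

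H3.3 was high at ends with many genes and low at ends with few, in each of the 3 groups. Averaged over the 19 ends, H3.3 enrichment was 0.113 ± 0.00456 in 3Rb, 0.13 ± 0.03 in 1Rb and 0.12 ± 0.02 in Cg (SD, n = 3 each), with 14 ends above the interior level and 5 below it in each group. The end of 11 was the highest, at 0.53, 0.49 and 0.48 in 3Rb, 0.47, 0.63 and 0.62 in 1Rb and 0.63, 0.48 and 0.48 in Cg. The end of 17 was the lowest, at -0.35, -0.30 and -0.31 in 3Rb, -0.32, -0.42 and -0.41 in 1Rb and -0.42, -0.33 and -0.33 in Cg. Across the 19 ends the Spearman correlation of H3.3 enrichment with the number of protein-coding genes was 0.91 to 0.92 in the libraries of 3Rb, 0.92 in each library of 1Rb and 0.90 to 0.91 in those of Cg. These points share the pooled input and differ in base composition, so the value is a description. For γH2AX the same correlation was -0.48 to -0.38 in 3Rb, -0.50 to -0.20 in 1Rb_P, -0.65 to 0.53 in 1Rb_M and -0.26 in B6. In distal windows with 3 or more genes H3.3 enrichment was 0.55 ± 0.03 in 3Rb, 0.63 ± 0.08 in 1Rb and 0.60 ± 0.08 in Cg, and with no gene -0.14 ± 0.01 in 3Rb, -0.14 ± 0.01 in 1Rb and -0.16 ± 0.00439 in Cg. Interior windows of the unjoined autosomes with 3 or more genes gave 0.51 in 3Rb, 0.58 in 1Rb and 0.56 in Cg. With no gene they gave -0.26, -0.31 and -0.31, so the rise of H3.3 with gene number is not particular to the ends.

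**Figure D5:**
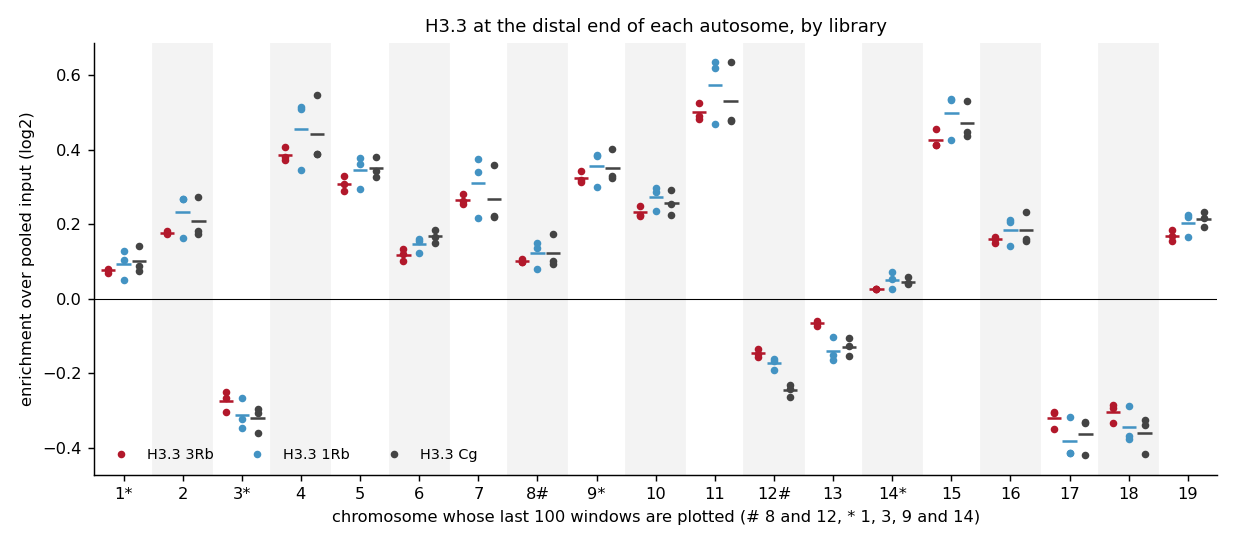
H3.3 enrichment over pooled input (log2, y axis) at the distal end of each autosome (x axis), 1 point per library with a line at the mean of 3, for 3Rb, 1Rb and Cg. The carriers overlap Cg at 18 of 19 ends; at the end of 12 all 6 carrier libraries, at -0.19 to -0.14, lie above the 3 Cg libraries, at -0.26 to -0.23.

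Over the ends as a whole no H3.3 difference between carriers and Cg was found: the mean was 0.12 in the 6 carrier libraries and 0.12 in Cg (exact permutation p = 0.881, two-sided). The ends of 8 and 12 minus the unjoined ends averaged -0.19 in the 6 carrier libraries and -0.23 in Cg, a difference of 0.04 with an exact permutation p of 0.0476 and an adjusted p of 0.0952. For the ends of 1, 3, 9 and 14, 3Rb differed from 1Rb and Cg by 0.01 (exact permutation p = 0.262, adjusted p = 0.314). As a region, 1 of 19 ends (5.26%) passed in 3Rb against Cg and 1 in 1Rb against Cg, and both were the end of 12. The backgrounds in either direction were 6.78% and 3.39%, with 5.08% higher and 1.69% lower for 3Rb against Cg. It held 0.155 ± 0.001% of counts in 3Rb, 0.153 ± 0.002% in 1Rb and 0.145 ± 0.001% in Cg (SD, n = 3 each), differences of 0.10 ± 0.01 (adjusted p = 0.000717 by edgeR) and 0.08 ± 0.01 (adjusted p = 0.00568 by edgeR). Without 1Rb replicate 1, 2 ends passed in 3Rb against Cg. Between 3Rb and 1Rb 0 of 19 passed by edgeR and 1 by DESeq2, with 1 at an unadjusted p under 0.05, beside a background of 3.39%.

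The higher windows at the end of 12 lay mostly in the immunoglobulin heavy chain locus, where the inputs of 1Rb_M and Cg also differed. The 20 innermost windows of this end, 115050001 to 116050000, overlap Igh (chr12:113258768-116009954), whose 53 annotated variable segments there are joined to diversity and joining segments in B cells. In 3Rb against Cg, 12 of the 13 higher windows of this end lay in Igh, by 0.22 to 1.47 on the log2 scale, and in 1Rb against Cg 10 of 11. At chr12:115600001-115650000 H3.3 was 25, 26.8 and 27.4 CPM in 3Rb, 25.2, 23.5 and 22.5 CPM in 1Rb and 9.52, 9.15 and 9.91 CPM in Cg. The input of the same window, with no antibody, was 42.3 CPM in 1Rb_M, 15.3 CPM in Cg and 15.2 CPM in B6. The input difference of 1Rb_M minus Cg in the 12 windows had a median of 0.55 and was above 0 in 11 of them, whereas in the 79 windows of this end that lie outside Igh and were not higher it had a median of 0.05. Without the Igh windows the end of 12 differed by 0.05 in 3Rb against Cg (adjusted p = 0.0598 by edgeR) and by 0.04 in 1Rb against Cg (adjusted p = 0.145 by edgeR), and neither passed. The enrichment of the remaining 80 windows was still above that of all 3 Cg libraries (-0.14 to -0.12) in all 6 carrier libraries (-0.11 to -0.08). No input of 3Rb was analysed here, and the 1Rb_M and Cg inputs also differ in age and strain label. The strain name of Cg, B6.SPRET7MOLF12, includes the number 12, and the part of strain in the difference at the end of 12 was not tested. The difference for the ends of 8 and 12 over the unjoined ends was then 0.01 (adjusted p = 0.286 by the exact permutation test).

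H3.3 windows that differed were few, and in 1Rb against Cg most went the way of the input. In 3Rb against Cg 58 distal windows were higher (3.05%, background 3.34%) and 23 lower (1.21%, background 6.16%, 9.51% in either direction). In 1Rb against Cg 31 were higher (1.63%, background 1.08%) and 12 lower (0.632%, background 2.62%, 3.71% in either direction), and in 3Rb against 1Rb 23 were higher (1.21%, background 2.08%) and 22 lower (1.16%, background 4.02%, 6.1% in either direction). These backgrounds include X and Y; of the other autosomal windows 3.18% were higher and 1.9% lower in 3Rb against Cg, 0.971% and 1.1% in 1Rb against Cg, and 1.52% and 1.1% in 3Rb against 1Rb. With library totals as the scale the split between 3Rb and 1Rb was 28 higher and 15 lower. For 1Rb against Cg, the input of 1Rb_M exceeded that of Cg in 18 of the 20 higher windows at other ends and in 0 of the 12 lower ones, beside 1185 of the 1857 windows that did not pass. The 43 calls of that comparison were 25 without 1Rb replicate 2 and 103 without Cg replicate 1. The 45 calls between 3Rb and 1Rb were 138, 21 and 20 without 1Rb replicate 1, 2 or 3, 22 and 24 without 3Rb replicate 2 or 3, and 82 without Cg replicate 1.

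Among the named H3.3 windows, the Tnfrsf23 and Osbpl5 window on 7 was lower in both carriers. It held 37.2, 39.7 and 38.6 CPM in 3Rb, 36.1, 40.9 and 36.3 CPM in 1Rb and 54, 52.1 and 50.9 CPM in Cg, with inputs of 36.3 CPM in 1Rb_M, 49.7 CPM in Cg and 18.7 CPM in B6. H3.3 and input thus stand in the same order there. Tmem196, the outermost gene of 12, was higher in its last window, at 48.4, 47.4 and 46.8 CPM in 3Rb, 45.01, 54.1 and 47.8 CPM in 1Rb and 38.2, 37.9 and 34.9 CPM in Cg, with inputs of 32.8 CPM in 1Rb_M, 26.2 CPM in Cg and 64.3 CPM in B6. Olfr530 on 7, an odorant receptor, was higher by 0.38 ± 0.06 in 3Rb and by 0.40 ± 0.07 in 1Rb against Cg, and 6 of the 34 olfactory receptor windows rose in 3Rb against Cg, beside 3.05% of distal and 3.34% of all windows. Ulk4 on 9, a kinase-like protein, was lower in 1Rb than in 3Rb and Cg, at 30.5, 28.3 and 30.6 CPM in 3Rb, 22.6, 24.7 and 24.1 CPM in 1Rb and 32.4, 34.7 and 30.4 CPM in Cg, with inputs of 16.6 CPM in 1Rb_M, 20.3 CPM in Cg and 25.4 CPM in B6. Zfp971 on 2 was lower in 3Rb than in Cg by 0.43 ± 0.05 and than in 1Rb by 0.30 ± 0.05, at 11.2, 11.1 and 10.6 CPM in 3Rb.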

How the data were processed

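The deposited values are counts of reads per 50 kb window, 1 table per library with 54520 windows along 21 chromosomes of mm10. CASAVA 1.8 and BWA are the named tools, with no settings, per the submitters' processing notes; the counting tool and the handling of duplicate and multiply mapped reads are not given in the sources used here. All 22 libraries were used, and the B6 γH2AX library entered no test.

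For each mark the 9 replicated libraries were fitted together in edgeR 4.0.16 (R 4.3.3), with a mean count of at least 10 per window, TMM scaling, the quasi-likelihood test and Benjamini-Hochberg adjustment over all 53118 (γH2AX) or 53117 (H3.3) windows. The same fit on sums over 59 regions (distal 5 Mb, proximal 3 to 13 Mb and interior of each autosome, X and Y) tested whole ends. CPM are counts scaled by edgeR. A call is an adjusted p under 0.05. Fits were tested on simulated data. Enrichment used pooled inputs and the interior of the 13 unjoined autosomes, with exact permutation tests in scipy 1.17.1. DESeq2 1.42.0, other scalings, extents, baselines and left-out libraries were alternatives.

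Named windows were, per comparison and direction, the first 5 runs of called windows by smallest adjusted p that overlap a protein-coding gene, at most 2 per chromosome, beside the outermost gene of each joined chromosome and up to 4 members per gene list. Runs join called windows with at most 1 window between, and windows with input below 0.2 or above 5 times the median were passed over. Which of these the text describes was chosen after their values were seen. Regions, lists and tests were chosen with earlier results of these data known, so no count over them is independent support. Gene positions and promoters are from RefSeq GRCm38.p6, the assembly of mm10. Results for a few genes are not reported here.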

Additional observations from a re-analysis of the deposited data

How the results depend on the processing

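Depth leaves a counting error of 2.0 to 6.68% at the median distal window, and 3 libraries per group cannot pass an exact test against 3. Windows called between 3Rb and 1Rb_P (456) were 212 with DESeq2, 742 without 1Rb_M replicates 1 and 2, and 267 to 677 with 1 library left out; against 1Rb_M (916) they were 735 to 1044. Between 1Rb_P and 1Rb_M (71) they were 9 with DESeq2, 46 with the replicate block, 417 without 1Rb_M replicates 1 and 2, and 6 to 447 with 1 left out. For H3.3 they were 55 to 100 in 3Rb against Cg (81) and 25 to 103 in 1Rb against Cg (43), and in 3Rb against 1Rb (45) they were 28 with the replicate block and 20 to 138 with 1 left out. Ends called between 3Rb and 1Rb_P (8) were 5 with library totals, 5 with the last 50 windows and 5 to 12 with 1 left out. Between 1Rb_P and 1Rb_M (9) they were 3 with the replicate block, 5 with the last 50 and 4 with the last 200 windows, and 1 to 10 with 1 left out. For H3.3 in 3Rb against Cg (1) they were 3 with DESeq2, 2 with library totals, 3 with the last 50 and 0 with the last 200 windows, 0 without Igh windows, and 1 to 2 with 1 left out. In 1Rb against Cg (1) they were 0 with the replicate block, the last 50 windows, the last 200 windows and without Igh windows. In 3Rb against 1Rb (0) they were 1 with DESeq2, 1 with library totals, 2 with the last 50 windows and 0 to 1 with 1 left out. Without 1Rb_M replicates 1 and 2 that group is 1 library, assumed to vary like the other groups. Leaving out the Igh windows was chosen after seeing the data.

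The H3.3 difference of carriers minus Cg over all ends, near 0, reversed to -0.00427 with the median window, -0.000814 with the last 200 windows, -0.000718 without Igh windows, and ran from -0.00629 to 0.0161 with 1 library left out. The γH2AX difference for 1, 3, 9 and 14 reversed to -0.0731 with each chromosome's own interior as the baseline. With the last 200 windows the end of 14 reversed to 0.0427 in 3Rb against 1Rb_P and 0.0545 against 1Rb_M, and without 1Rb_M replicates 1 and 2 the end of 18 reversed to 0.0982 against 1Rb_M. The lowest γH2AX band in 3Rb (-0.152) moved to -0.173 in bands of 0.5 Mb. Library totals moved the median of all windows by -0.0854 in 3Rb against 1Rb_M and -0.085 in 1Rb_P against 1Rb_M, where the split became 6 higher and 56 lower in place of 45 and 26; in H3.3 3Rb against 1Rb it became 28 and 15 in place of 23 and 22. Of the named windows Isl1 lost its call under 7 settings and the Cdh4 window that differed between the 1Rb crosses under 8. The γH2AX difference for 8 and 12 (-0.0502) was -0.00519 with the last 50 windows, -0.112 with the last 200 and -0.0283 without 1Rb_M replicates 1 and 2. The other differences in enrichment, and this one, kept their direction and stayed above 0.05 in adjusted p under every alternative run. Staying above 0.05 is no sign of stability, because the numbers of libraries limit the test. The smallest exact permutation p possible, before adjustment, was 0.0238 with all libraries. With a 3Rb library left out it was 0.0714, and with the replicate block 0.25, so those runs could not pass. Where not stated above, the cause was not tested.

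Replicate numbers did not pair the samples: same-numbered deviations correlated at -0.326 to 0.317 for γH2AX and -0.565 to 0.14 for H3.3 over 9 pairs each. Beside the counts above, the block moved no count of calls by over 1.5 times.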
